A study of Rattus norvegicus with 24 samples.

Results

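The genes described here are 35 rat liver genes of fatty acid oxidation and other classic targets of PPAR alpha (peroxisome proliferator-activated receptor alpha). They were taken as named genes of the mitochondrial and peroxisomal beta oxidation pathways, of omega hydroxylation by the Cyp4a enzymes, and of the receptor's other known targets. All 35 were found by Entrez gene ID among the 15319 genes measured. Bulk liver RNA came from 24 adolescent Sprague-Dawley rats, an outbred laboratory stock, with 1 library per animal. The 4 groups of 6 animals were females exposed to PCB 52, sham-exposed females, males exposed to PCB 52 and sham-exposed males. PCB 52 is a polychlorinated biphenyl, a persistent industrial chemical that is found in indoor air. The rats were 28 days old when they arrived and had 8 days to acclimate. Exposure was through the nose only, for 4 hours a day over 28 days, in air passed at 12 L/min over beads coated with the compound. Females started at 42 days old and males at 39 days old, so sex and age at the start went together. The air concentration and the body dose are not known here.

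PPAR alpha is a nuclear receptor that is activated by fatty acids and by fibrate drugs. In the fasted liver it turns on the genes that carry fatty acids into mitochondria and peroxisomes and break them down, and those that make ketone bodies. It binds DNA with RXR, its partner receptor, at a direct repeat of the half-site AGGTCA with 1 base between the copies, called DR1. Rodent liver is known for a strong response of these genes, with growth of peroxisomes and a large rise of the Cyp4a enzymes, when the receptor is activated by drugs.

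Library totals ran from 6994832 to 9185511 counts. Values are counts per 1e+06 library counts (CPM), which do not correct for transcript length, so levels are compared between animals and never between genes. Tests are edgeR quasi-likelihood tests with Benjamini-Hochberg adjustment over all genes tested, and a gene is said to pass at an adjusted p under 0.05. Hepatocyte markers summed to 148738 to 190478 CPM per library over the 4 groups. Of the 7 fat cell markers, Plin1 and Lep were at 0 in every group and Adipoq had 1 count in all. The others, Cidec, Cfd, Lipe and Fabp4, were detected, with 12287, 2859, 2714 and 202 counts over all libraries. Of the genes described here, 34 entered the fits of females and of all libraries, and 33 entered the fit of males. In whole-liver RNA, fewer cells of a type and less RNA per cell cannot be told apart. On the leading component of the other genes, which held 12.3% of the variance within groups, the 4 highest scores belonged to PCB 52 animals 13 to 16, with 0.176, 0.136, 0.237 and 0.197 in that order. Close below these came sham animals 11 and 12, with 0.13 each. After a gap, the scores of the remaining libraries ran from 0.028 in PCB 52 animal 23 to -0.179. Animals with consecutive numbers often had similar scores, such as -0.124 to -0.179 in animals 17 to 20. Sham animals have the numbers 1 to 12 and PCB 52 animals the numbers 13 to 24. Exposure and the order of animal numbers therefore cannot be told apart. Values without animals 13 to 16 are given for many of the genes where they differ by over 1.5 times or change a call. Genes that passed between the sham sexes only in that fit are counted in the closing section and not named.

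To show what the DNA of these genes looks like, the window from 250 bases before to 50 bases after the start site was read from RefSeq promoters of the GRCr8 assembly. It was available for 30 of the 35 genes. The DR1 motif, AGGTCA followed by any 1 base and a second AGGTCA, was searched on both strands. With at most 1 mismatch it was found for 2 of the 30 genes (6.67%), Acadvl and Fabp1, against 0.514% of all 27457 genes with a window. Of the 12198 measured genes with a window, 0.508% had such a match. With at most 2 mismatches it was found for 6 of the 30 genes (20%), against 4.06% of all genes with a window and 3.21% of the measured genes. The additional 4 were Creb3l3, Slc25a20, Crat and Etfa. A match is a run of letters and not a measured binding site, and a window without one says only that these letters are not in it. Of the 6 windows printed here, 4 hold a match, shown in capitals. They were chosen because Fabp1, Crat and Creb3l3 differed between the sexes and because Acadvl holds one of the closest matches. Those of Cyp4a3 and Pdk4, which hold no match, belong to genes with some of the widest differences between the sexes.

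Fabp1 lies at chr4:104749090-104749389 on the plus strand, Crat at chr3:34087050-34087349 on the minus strand, Creb3l3 at chr7:9273070-9273369 on the plus strand, Acadvl at chr10:55236656-55236955 on the minus strand, Cyp4a3 at chr5:134352187-134352486 on the minus strand and Pdk4 at chr4:34568280-34568579 on the minus strand. Each window is given 5′ to 3′ on the gene's own strand.
Fabp1: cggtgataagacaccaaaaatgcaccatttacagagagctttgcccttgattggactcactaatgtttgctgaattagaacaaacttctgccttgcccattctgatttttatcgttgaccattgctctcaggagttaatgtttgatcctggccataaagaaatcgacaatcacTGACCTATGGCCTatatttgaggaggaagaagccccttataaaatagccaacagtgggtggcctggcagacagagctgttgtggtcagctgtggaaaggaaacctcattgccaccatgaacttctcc
Crat: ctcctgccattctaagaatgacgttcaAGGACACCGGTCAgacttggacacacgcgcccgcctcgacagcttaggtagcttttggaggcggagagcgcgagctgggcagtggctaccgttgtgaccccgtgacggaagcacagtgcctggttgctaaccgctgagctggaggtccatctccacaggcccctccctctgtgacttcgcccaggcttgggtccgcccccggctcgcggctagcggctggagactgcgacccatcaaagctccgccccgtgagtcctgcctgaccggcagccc
Creb3l3: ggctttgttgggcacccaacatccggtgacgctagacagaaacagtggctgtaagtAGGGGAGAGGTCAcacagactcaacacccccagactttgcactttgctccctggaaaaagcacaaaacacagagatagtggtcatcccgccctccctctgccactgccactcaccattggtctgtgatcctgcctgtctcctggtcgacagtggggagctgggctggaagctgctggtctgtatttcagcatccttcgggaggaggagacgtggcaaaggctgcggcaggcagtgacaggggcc
Acadvl: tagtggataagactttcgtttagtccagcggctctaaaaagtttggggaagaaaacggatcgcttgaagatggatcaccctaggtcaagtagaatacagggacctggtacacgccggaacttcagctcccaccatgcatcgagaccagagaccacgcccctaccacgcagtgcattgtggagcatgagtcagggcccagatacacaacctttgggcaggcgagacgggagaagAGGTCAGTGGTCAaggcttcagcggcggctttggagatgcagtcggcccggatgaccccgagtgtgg
Cyp4a3: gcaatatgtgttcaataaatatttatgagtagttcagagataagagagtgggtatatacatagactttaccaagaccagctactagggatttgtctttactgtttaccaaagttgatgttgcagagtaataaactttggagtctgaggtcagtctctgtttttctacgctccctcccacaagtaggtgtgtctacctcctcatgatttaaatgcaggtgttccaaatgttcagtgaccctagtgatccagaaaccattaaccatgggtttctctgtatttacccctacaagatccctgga
Pdk4: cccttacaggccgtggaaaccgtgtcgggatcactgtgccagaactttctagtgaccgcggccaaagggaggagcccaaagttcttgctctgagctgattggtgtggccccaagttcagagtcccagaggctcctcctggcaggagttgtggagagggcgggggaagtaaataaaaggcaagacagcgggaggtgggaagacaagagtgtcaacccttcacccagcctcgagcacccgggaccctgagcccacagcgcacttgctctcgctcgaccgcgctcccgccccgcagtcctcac

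Female livers carried more transcript of many of these genes than male livers, both in PCB 52 animals and in sham animals. Among PCB 52 animals, 13 of 34 genes were higher in females and 4 were lower. Among sham animals 15 of 34 were higher in females and 3 were lower. Over all 10535 genes tested, 10.1% were called higher and 9.73% lower in PCB 52 females, and 10.7% were called higher and 9.62% lower in sham females. The median log2 fold change of the 34 genes, female over male, was 0.28 among PCB 52 animals and 0.27 among sham animals. The median of all genes was -0.004 and -0.003 in the same comparisons. The sexes did not overlap, with all 6 females above all 6 males, for 9 genes among PCB 52 animals and 13 among sham animals. The females lay entirely below the males for 2 genes in each. Over all genes, 5.89% and 3.96% did not overlap in these directions among PCB 52 animals, and 6.71% and 4.8% among sham animals. The same 16 genes passed in both comparisons, which use different animals but come from 1 fit with a shared estimate of the spread, and 33 of 34 had the same sign in both. By role, both Cyp4a genes tested, 2 of 3 thioesterase genes, 2 of 5 genes of fatty acid activation and the carnitine shuttle, and 1 of 8 genes of the core mitochondrial cycle passed as higher in females in both comparisons. The counts of the sexes were deposited in separate tables, so table and sex cannot be told apart.

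**Figure D1:**
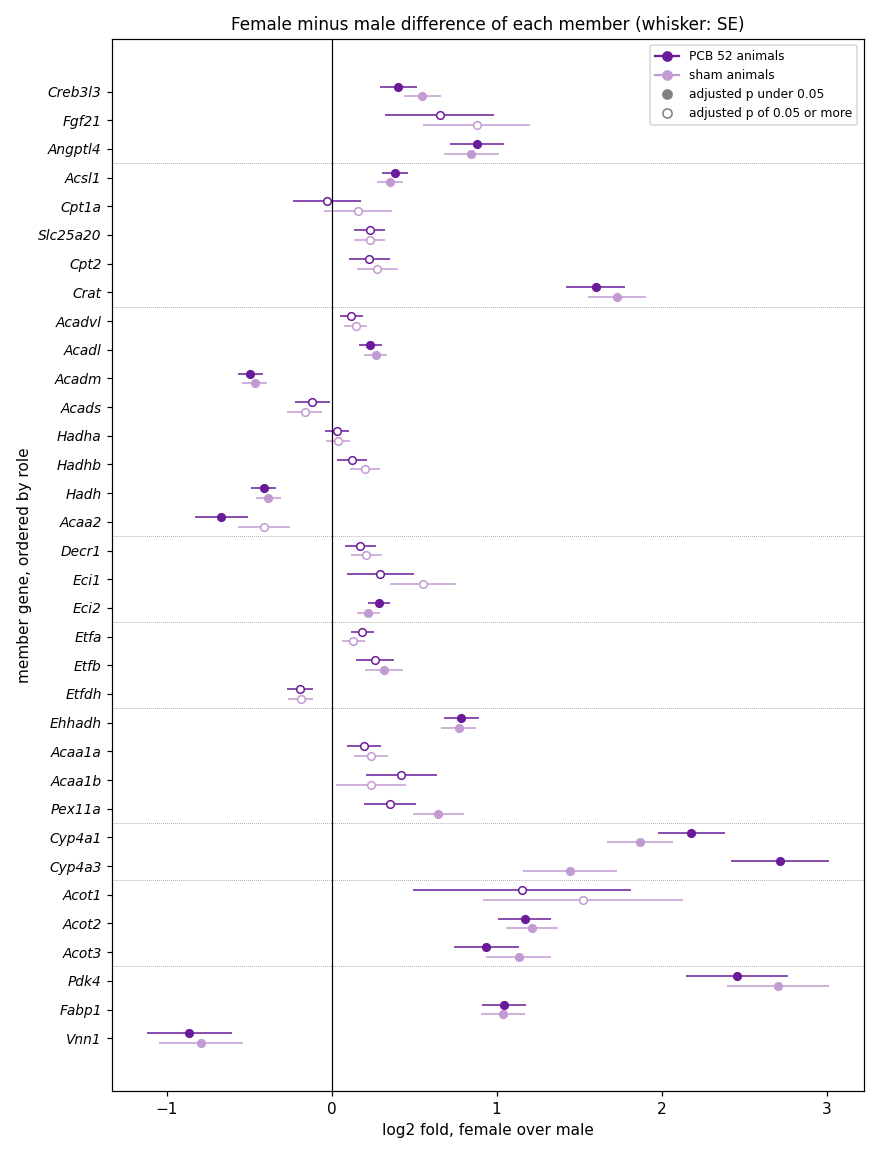
Log2 fold change of females over males (x axis) for each tested gene (y axis, by role), among PCB 52 animals and among sham animals, with the standard error as a bar. The points of Cyp4a1, Cyp4a3, Crat and Pdk4 lie at the far right, and those of Acadm, Hadh, Acaa2 and Vnn1 lie left of 0.

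The Cyp4a enzymes hydroxylate the end of a fatty acid chain, the first step of omega oxidation, and are textbook targets of PPAR alpha. Cyp4a1 had a lowest, median and highest value of 269, 331 and 470 CPM in PCB 52 females, against 56.3, 67.8 and 137 CPM in PCB 52 males. The sham values were 264, 300 and 353 CPM in females, against 54.7, 82.5 and 103 CPM in males. Every female lay above every male. The log2 fold change was 2.18 ± 0.20 (SE) among PCB 52 animals (adjusted p = 1.36e-08) and 1.87 ± 0.20 among sham animals (adjusted p = 1.44e-07). Cyp4a3, which is nearly identical to Cyp4a2 so that reads may be split between them, had 7.52, 9.24 and 16.6 CPM in PCB 52 females, against 0.535, 1.33 and 3.21 CPM in PCB 52 males. Sham rats had 5.23, 6.78 and 9.65 CPM in females, against 1.55, 2.52 and 3.57 CPM in males. The sexes were again fully apart, by 2.72 ± 0.30 among PCB 52 animals (adjusted p = 4.87e-08) and 1.44 ± 0.28 among sham animals (adjusted p = 3.14e-04). Cyp4a2 was too low to test. Over the 6 libraries of a group it had 1 count in PCB 52 females, 3 in sham females, 15 in PCB 52 males and 20 in sham males, so its few counts lay mostly in males.

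Pyruvate dehydrogenase kinase 4, encoded by Pdk4, blocks the burning of glucose when fat is the fuel. Pdk4 had 123, 167 and 296 CPM in PCB 52 females, against 15.6, 34.1 and 46.4 CPM in PCB 52 males. Among sham rats, females had 105, 169 and 314 CPM, against 17.1, 29.9 and 37.5 CPM in males. The lowest female stood well above the highest male, and the log2 fold change was 2.46 ± 0.31 among PCB 52 animals (adjusted p = 2.58e-06) and 2.71 ± 0.31 among sham animals (adjusted p = 8.46e-07). Fabp1, the fatty acid binding protein of liver cytosol, had 1127, 2002 and 2180 CPM in PCB 52 females, against 740, 840 and 1076 CPM in PCB 52 males. In sham animals it had 1611, 1854 and 2463 CPM in females, against 783, 892 and 1083 CPM in males. Its log2 fold change was 1.05 ± 0.13 among PCB 52 animals (adjusted p = 6.80e-07) and 1.04 ± 0.13 among sham animals (adjusted p = 7.66e-07). Vnn1, the pantetheinase that releases cysteamine and pantothenate, went the other way. It had 3.52, 8.75 and 11.48 CPM in PCB 52 females, against 10.4, 14.4 and 18.96 CPM in PCB 52 males. The sham values were 5.69, 9.40 and 14.3 CPM in females, against 9.63, 16.2 and 24.7 CPM in males. Its groups overlapped, and the log2 fold change was -0.86 ± 0.26 among PCB 52 animals (adjusted p = 0.0188) and -0.79 ± 0.25 among sham animals (adjusted p = 0.0270). Without animals 13 to 16, Vnn1 stood at an adjusted p of 0.0506 among the remaining PCB 52 animals. Among sham animals it no longer passed without female 1 (adjusted p = 0.0656), female 3 (0.0638), male 1 (0.0513), male 2 (0.0664) or male 6 (0.0780).

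At the entry of the pathway, acyl-CoA synthetase makes the activated fatty acid, the carnitine shuttle brings it into the mitochondrion, and carnitine acetyltransferase, encoded by Crat, links short acyl groups to carnitine. Crat had 35.1, 66.8 and 74.6 CPM in PCB 52 females, against 15.4, 19.1 and 22.6 CPM in PCB 52 males. Sham rats had 62.4, 78.3 and 102 CPM in females, against 15.98, 24.8 and 29.9 CPM in males. No female overlapped a male, and the log2 fold change was 1.60 ± 0.18 among PCB 52 animals (adjusted p = 1.06e-07) and 1.73 ± 0.17 among sham animals (adjusted p = 2.41e-08). The synthetase gene Acsl1 had 2206, 2420 and 2895 CPM in PCB 52 females, against 1688, 1839 and 2116 CPM in PCB 52 males, and 2118, 2367 and 2465 CPM in sham females, against 1670, 1831 and 1909 CPM in sham males. This was a smaller step of 0.39 ± 0.08 (adjusted p = 4.60e-04) and 0.35 ± 0.08 (adjusted p = 1.33e-03), but the sexes did not overlap. The shuttle itself did not pass. Cpt1a, the gated outer-membrane transferase, had a log2 fold change of -0.03 among PCB 52 animals and 0.16 among sham animals. Slc25a20, the carrier of the inner membrane, had 0.23 and 0.23, and Cpt2, the inner transferase, had 0.23 and 0.28.

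**Figure D2:**
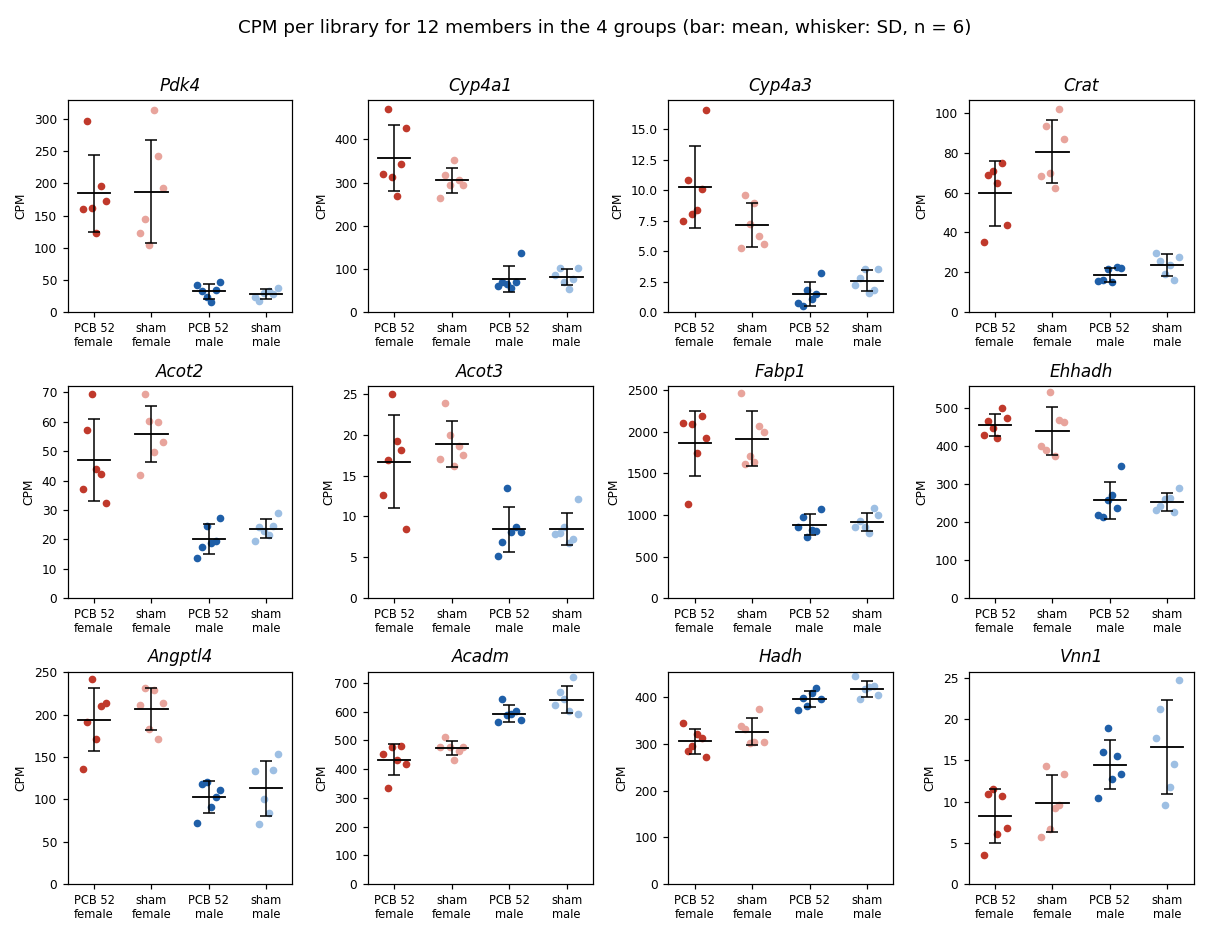
CPM of each library (points) for 12 of the genes in the 4 groups, with the mean as a bar and the SD as a whisker (n = 6), on linear axes that start at 0. Females stand above males for Cyp4a1, Cyp4a3, Crat, Pdk4 and Fabp1, while PCB 52 and sham animals of 1 sex overlap in every panel.

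The core cycle of mitochondrial beta oxidation runs through the acyl-CoA dehydrogenases, ordered by chain length, the trifunctional protein and the shorter-chain hydratase, dehydrogenase and thiolase steps. Of its 8 genes, 1 was higher in females and 3 were lower among PCB 52 animals, and 1 was higher and 2 were lower among sham animals. Acadm, the medium-chain dehydrogenase, had 334.3, 442 and 479 CPM in PCB 52 females, against 564, 589 and 644 CPM in PCB 52 males. Among sham rats, females had 432, 476 and 510 CPM, against 592, 633 and 720 CPM in males. All females lay below all males, by -0.49 ± 0.08 among PCB 52 animals (adjusted p = 9.71e-06) and -0.47 ± 0.08 among sham animals (adjusted p = 2.19e-05). Hadh, the short-chain hydroxyacyl-CoA dehydrogenase, also separated the sexes, with 273, 304 and 345 CPM in PCB 52 females, against 373, 398 and 420 CPM in PCB 52 males. In sham animals it had 303, 319 and 376 CPM in females, against 397, 420 and 447 CPM in males. The log2 fold change of this gene was -0.41 ± 0.08 (adjusted p = 1.17e-04) among PCB 52 animals and -0.38 ± 0.08 (adjusted p = 2.82e-04) among sham animals.

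Acaa2, the mitochondrial thiolase, was lower in females among PCB 52 animals, at -0.67 ± 0.16 (adjusted p = 2.88e-03), with 258, 336 and 517 CPM in PCB 52 females, against 365, 577 and 629 CPM in PCB 52 males. Among sham animals it had 256, 438 and 499 CPM in females, against 432, 530 and 673 CPM in males, and its log2 fold change of -0.41 did not pass. These contrasts were not shown to differ for Acaa2: the difference of the responses was -0.26 ± 0.23 with an adjusted p of 1. Acadl, the long-chain dehydrogenase, ran the other way from Acadm, with 0.23 ± 0.07 among PCB 52 animals (adjusted p = 0.0152) and 0.27 ± 0.07 among sham animals (adjusted p = 5.66e-03). The remaining 4 genes of the cycle did not pass. Acadvl, for very long chains, had log2 fold changes of 0.12 among PCB 52 animals and 0.15 among sham animals. Acads, for short chains, had -0.12 and -0.16. Hadha, the alpha subunit of the trifunctional protein, had 0.03 and 0.04, and Hadhb, its beta subunit, had 0.12 and 0.20.

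Unsaturated fatty acids need extra isomerases and a reductase, and electrons from the dehydrogenases pass through the electron transfer flavoprotein to the respiratory chain. Eci2, an enoyl-CoA isomerase, was higher in females by 0.29 ± 0.07 among PCB 52 animals (adjusted p = 2.18e-03) and by 0.22 ± 0.07 among sham animals (adjusted p = 0.0167). Without sham male 4 the sham difference stood at an adjusted p of 0.0534. Eci1, the other isomerase, had log2 fold changes of 0.30 and 0.55 in the same comparisons, and Decr1, the dienoyl-CoA reductase, had 0.17 and 0.21, and none of these passed. Etfb, the beta subunit of the flavoprotein, was higher in sham females by 0.32 ± 0.11, just inside the threshold (adjusted p = 0.0486). It did not pass among PCB 52 animals, at 0.26. The sham call of Etfb held in 7 of the 24 fits that left out 1 library, and its adjusted p over those fits ran from 0.0201 to 0.128. Etfa, the alpha subunit, had 0.18 and 0.13, and Etfdh, which hands the electrons to ubiquinone, had -0.19 and -0.19. None of the last values passed.

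In peroxisomes, which shorten very long chains, Ehhadh encodes the bifunctional enzyme of the inducible pathway. It had 421, 457 and 501 CPM in PCB 52 females, against 213, 249 and 346.95 CPM in PCB 52 males. The sham values were 374, 432 and 543 CPM in females, against 228, 252 and 291 CPM in males. The sexes were fully apart, by 0.79 ± 0.10 (adjusted p = 1.08e-06) and 0.77 ± 0.10 (adjusted p = 1.65e-06). Pex11a, which drives the division of peroxisomes, was higher in sham females by 0.65 ± 0.16 (adjusted p = 2.64e-03), while its 0.35 among PCB 52 animals did not pass. The peroxisomal thiolases Acaa1a and Acaa1b are near-identical copies, so their counts are uncertain. Acaa1a had log2 fold changes of 0.19 among PCB 52 animals and 0.24 among sham animals, and Acaa1b had 0.42 and 0.24, none of which passed.

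The acyl-CoA thioesterases release free fatty acids from coenzyme A, and Acot1, Acot2 and Acot3 are close copies whose reads may be shared. Acot2, the mitochondrial form, had 32.3, 43.1 and 69.5 CPM in PCB 52 females, against 13.6, 19.1 and 27.4 CPM in PCB 52 males. Sham rats had 42.0, 56.6 and 69.5 CPM in females, against 19.4, 23.6 and 28.9 CPM in males. Its log2 fold change was 1.17 ± 0.16 (adjusted p = 2.28e-06) and 1.22 ± 0.16 (adjusted p = 1.09e-06), with no overlap. Acot3 had 0.94 ± 0.20 among PCB 52 animals (adjusted p = 7.10e-04) and 1.13 ± 0.20 among sham animals (adjusted p = 7.18e-05). Acot1 was barely detected, at no more than 2.48 CPM in any library, and its 1.15 and 1.52 did not pass.

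Of the receptor's partners and the secreted factors it controls, Angptl4, an inhibitor of lipoprotein lipase, had 136, 201 and 242 CPM in PCB 52 females, against 72.2, 107 and 121 CPM in PCB 52 males. Among sham rats, females had 171, 213 and 231 CPM, against 71.2, 117 and 154 CPM in males. It was higher in females without overlap, by 0.88 ± 0.17 (adjusted p = 2.64e-04) and 0.85 ± 0.17 (adjusted p = 4.13e-04). Creb3l3, a liver transcription factor that acts with PPAR alpha in fasting, had 413, 500 and 636 CPM in PCB 52 females, against 256, 389 and 455 CPM in PCB 52 males. In sham animals it had 524, 576 and 688 CPM in females, against 340.7, 397 and 444 CPM in males. The differences were 0.40 ± 0.11 (adjusted p = 9.30e-03), with overlap, and 0.55 ± 0.11 (adjusted p = 4.85e-04), without. Fgf21, the fasting hormone of liver, had 0.65 among PCB 52 animals and 0.88 among sham animals, and neither passed. Without animals 13 to 16 the PCB 52 comparison called 11 of 34 genes higher and 3 lower in females, and Creb3l3 (adjusted p = 0.0563) and Acadl (adjusted p = 0.134) no longer passed. Over all genes it called 1659 in that fit, which had fewer libraries, against 2093 in the main test.

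Ppara itself, the receptor gene, was lower in females among PCB 52 animals. It had 38.7, 49.3 and 69.0 CPM in PCB 52 females, against 51.2, 74.2 and 114 CPM in PCB 52 males, a log2 fold change of -0.62 ± 0.19 (adjusted p = 0.0229). The sham values were 28.0, 54.6 and 65.1 CPM in females, against 53.5, 64.5 and 78.0 CPM in males, and -0.40 ± 0.19 did not pass (adjusted p = 0.167). With consecutively numbered animals as a block it passed among sham animals, at -0.42 (adjusted p = 0.0153). The PCB 52 call of Ppara was lost without female 1 (adjusted p = 0.0550), female 2 (0.0530), male 4 (0.05) or male 5 (0.0781). Of the 50 other genes of the pathway that were tested, 15 were higher and 14 lower in females among PCB 52 animals, and 14 were higher and 13 lower among sham animals. The 3 with the smallest p in both were Acsl5, Acot5 and Abcd2. Acsl5, another acyl-CoA synthetase, was higher in females by 1.75 ± 0.10 among PCB 52 animals (adjusted p = 5.07e-14) and by 1.72 ± 0.10 among sham animals (adjusted p = 8.32e-14). Acot5, a further close copy of the thioesterases, was higher by 2.83 ± 0.19 and 2.68 ± 0.18, and Abcd2, a peroxisomal importer of very long chains, by 2.56 ± 0.22 and 2.35 ± 0.22. All 3 passed in both comparisons.

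Plin2, which coats lipid droplets, was higher in females by 0.88 ± 0.17 among PCB 52 animals (adjusted p = 3.77e-04) and by 1.14 ± 0.17 among sham animals (adjusted p = 1.66e-05). Hsd17b4, the bifunctional enzyme of peroxisomal breakdown of branched and very long chains, had 0.01 among PCB 52 animals and -0.00 among sham animals and did not pass. Of the marker lists, macrophage genes moved with sex: 4 of 7 passed as higher in females in both comparisons. Their summed level ran from 478 to 649 CPM in PCB 52 females, against 446 to 505 CPM in PCB 52 males, and from 527 to 773 CPM in sham females, against 390 to 513 CPM in sham males. In both comparisons 2 of 8 hepatocyte markers and 1 of 3 bile duct markers passed as lower in females, and 1 of 4 fat cell markers and 1 of 3 lymphocyte markers passed as higher. The part of these cell types in the sex differences was not tested.

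PCB 52 changed none of these genes past the threshold in females, in males or on average over both sexes. The edgeR test called 0 of 34 genes in females, 0 of 33 in males and 0 of 34 on average, where it called 0% of all genes as well. The smallest adjusted p among them was 0.388 in females, 0.829 in males and 0.188 on average. Over all genes 1021 stood at an unadjusted p under 0.05 in females, 585 in males and 1625 on average. DESeq2 called 28, 1 and 105 genes in these comparisons and 0 of the genes described here. In females it gave no adjusted p for Cyp4a3, so its count there does not cover that gene. In both sexes most of the genes described here had slightly lower values in exposed animals. The log2 fold change, PCB 52 over sham, was below 0 for 29 of 34 genes in females, 28 of 33 in males and 30 of 34 on average. The share of all genes below 0 was 49.3%, 49% and 48.4% in the same order. The median of the genes was -0.15 in females, -0.09 in males and -0.12 on average, where that of all genes was between 0.003 and 0.007. No gene of the 35 that was tested separated PCB 52 from sham animals completely in either sex. Few genes did so at all. Of 10251 genes tested in females, 17 were fully higher and 17 fully lower in exposed animals. Of 10180 in males, 6 were fully higher and 18 fully lower.

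**Figure D3:**
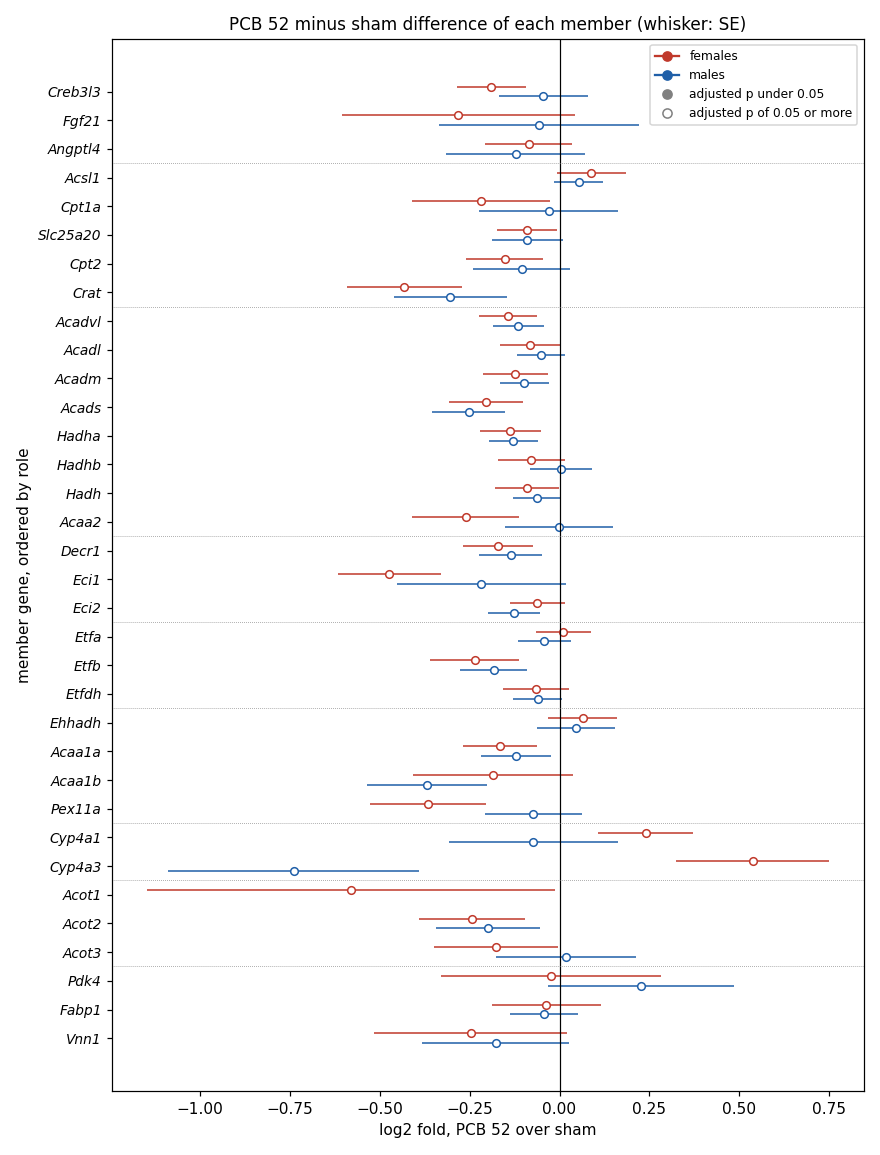
Log2 fold change of PCB 52 over sham animals (x axis) for each tested gene (y axis, by role), in females and in males, with the standard error as a bar. Most points lie slightly left of 0, none passed the test, and Cyp4a3 lies right of 0 in females (0.54) and left of 0 in males (-0.74).

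All these genes were measured in the same 24 libraries, so their directions are not independent. Exposure also went with animal number, so a shift with exposure and one with animal order cannot be told apart. Animal 13, a PCB 52 male, had the lowest value of its group for 20 of 34 genes and was below its group mean for 31. Animal 24, a PCB 52 female, had the lowest value for 18 and was below its group mean for 28. Animal 18, a PCB 52 female, had the highest value for 14 genes and the lowest for 0. Among sham animals, animal 11, a male, had the highest value of its group for 19 genes and animal 4, a female, for 16. Without animal 11, 26 of 33 genes were below 0 in males, and without animal 4 the median in females was -0.11. Without animal 13, the count below 0 in males was 24 of the genes tested and the median was -0.04. Without animals 13 to 16, the count below 0 was 28 of 34 in females, with a median of -0.12, and 20 of 33 in males, with a median of -0.05. On average over both sexes it was 28 of 34, with a median of -0.07.

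**Figure D4:**
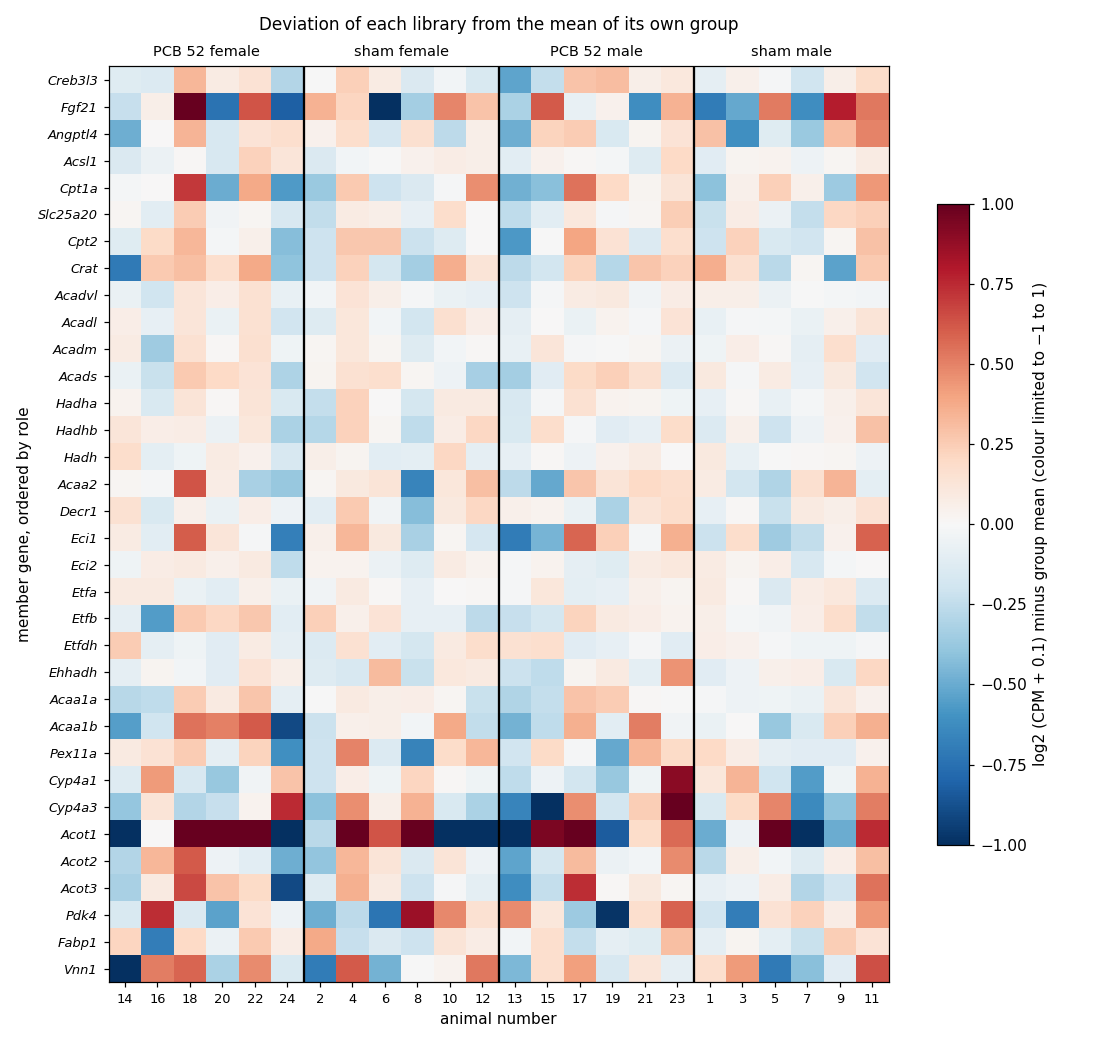
Deviation of each library from the mean of its own group on the log2 CPM scale (colour), for each gene (rows, by role) and each animal (columns, by group). Animals 13 and 24 are columns of mostly negative deviations, with the lowest value of their group for 20 and 18 of 34 genes.

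In females, 3 genes were lower and 1 was higher at an unadjusted p under 0.05, where 5.32% and 4.64% of all genes were. Eci1, the isomerase of unsaturated chains, had 68.1, 112 and 167 CPM in PCB 52 females, against 125, 160 and 197 CPM in sham females. The groups overlapped and 5 of 6 exposed females were below the sham mean. The log2 fold change of this gene was -0.47 ± 0.14 (unadjusted p = 4.30e-03, adjusted p = 0.388). Crat had a log2 fold change of -0.43 ± 0.16 (adjusted p = 0.438), with all 6 exposed females below the sham mean and the groups overlapping between 62.4 and 74.6 CPM. Pex11a, with 10.54, 17.6 and 19.4 CPM in PCB 52 females, against 12.98, 21.2 and 29.2 CPM in sham females, had -0.37 ± 0.16 (adjusted p = 0.485). Cyp4a3 was the gene on the higher side, at 0.54 ± 0.21 (adjusted p = 0.442), and all 6 exposed females were above the sham mean. Without PCB 52 female 6, the library of animal 24, its log2 fold change was 0.32. Acads, which catalyses the first step for short chains, had 104, 133 and 155 CPM in PCB 52 females, against 119, 153 and 169 CPM in sham females, and -0.21 ± 0.10 (adjusted p = 0.528).

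In males, 3 genes were lower and 0 higher at an unadjusted p under 0.05, where 2.85% and 2.9% of all genes were. Acads had 107, 139 and 161 CPM in PCB 52 males, against 145, 170 and 177 CPM in sham males, with all 6 exposed males below the sham mean. Its log2 fold change was -0.25 ± 0.10 (unadjusted p = 0.0216, adjusted p = 0.829). Acaa1b, whose counts are uncertain beside Acaa1a, had 18.1, 23.9 and 35.9 CPM in PCB 52 males, against 25.6, 32.8 and 42.7 CPM in sham males, and -0.37 ± 0.17. Cyp4a3 had -0.74 ± 0.35, with 5 of 6 exposed males below the sham mean, without PCB 52 male 6, the library of animal 23, it had -1.12, and without animals 13 and 15 it had -0.38. Etfb had -0.18 ± 0.09 and Crat -0.30 ± 0.16, the second with all 6 exposed males below the sham mean. Each of these 4 also had an adjusted p of 0.829. Without animals 13 and 15, which hold 2 of the 6 PCB 52 male libraries, Acads had -0.13, Acaa1b -0.19, Etfb -0.07 and Crat -0.18.

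On average over both sexes, 7 genes were lower and 0 higher at an unadjusted p under 0.05, where 7.38% and 8.05% of all genes were. They were Acads, Crat, Etfb, Hadha, Acadvl, Eci1 and Decr1, of which 3 belong to the core mitochondrial cycle. Acads had an average log2 fold change of -0.23 ± 0.07 (adjusted p = 0.188) and Crat -0.36 ± 0.12 (adjusted p = 0.189). Etfb had -0.21 ± 0.08 (adjusted p = 0.237). Hadha, at -0.13 ± 0.05 (adjusted p = 0.242), had 258, 291 and 314 CPM in PCB 52 females, against 268, 326 and 372 CPM in sham females. In males it had 244, 276 and 303 CPM in PCB 52 animals, against 287, 302 and 329 CPM in sham animals. Acadvl, at -0.12 ± 0.05 (adjusted p = 0.243), had 254, 292 and 324 CPM in PCB 52 females, against 306, 319 and 357 CPM in sham females. In males it had 227, 267 and 280 CPM in PCB 52 animals, against 275, 285 and 299 CPM in sham animals. The shifts of both genes were small and the groups overlapped in each sex. Without animals 13 to 16 the average was -0.14 for Acads, -0.09 for Etfb and -0.07 for Acadvl. By role, all 8 genes of the core mitochondrial cycle had an average below 0, as had all 3 for unsaturated chains and all 3 of electron transfer. So had all 3 thioesterases and all 3 of the receptor's partners and secreted factors. The 4 genes with an average above 0 were Pdk4 at 0.10, Cyp4a1 at 0.09, Acsl1 at 0.07 and Ehhadh at 0.06, and none of them passed.

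The other genes of the pathway also had 0 calls in the edgeR test of exposure. At an unadjusted p under 0.05, 3 of 49 were higher and 7 lower in females, 1 of 50 was higher and 4 lower in males, and 4 of 50 were higher and 10 lower on average. Of all genes tested, 4.64% were higher and 5.32% lower in females, 2.9% and 2.85% in males, and 8.05% and 7.38% on average. In females the smallest p values belonged to Decr2, a peroxisomal reductase, at -0.27 ± 0.08 (adjusted p = 0.343), Me1, the malic enzyme that makes NADPH for fat synthesis, at 0.61 ± 0.19 (adjusted p = 0.391), and Scd, the stearoyl-CoA desaturase, at 1.06 ± 0.37 (adjusted p = 0.430). Decr2 did not overlap between PCB 52 and sham females, where 17 of all 10251 genes tested were fully lower in exposed females. DESeq2 called Decr2 at an adjusted p of 0.0487. In males, genes with some of the smallest p values were Hsd17b10, a mitochondrial dehydrogenase, at -0.20 ± 0.08, and Acat1, the acetoacetyl-CoA thiolase, at -0.18 ± 0.08, each with an adjusted p of 0.829. Without animals 13 and 15 Acat1 had -0.11. On average Hsd17b10 had -0.24 ± 0.07 (adjusted p = 0.146) and Scd 0.84 ± 0.25 (adjusted p = 0.174). DESeq2 called Scd on average at an adjusted p of 0.0306. For Hsd17b10 it gave an adjusted p that rounds to 0.05, from which a call cannot be told.

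Scd had 1959, 3762 and 5618 CPM in PCB 52 females, against 708, 1971 and 2519 CPM in sham females. In males it had 1008, 2700 and 3228 CPM in PCB 52 animals, against 831, 1590 and 2679 CPM in sham animals, so the groups overlapped in both sexes. Ppara had 0.00 ± 0.16 in females and 0.23 ± 0.20 in males. Its male value was 0.0525 without PCB 52 male 5 and 0.44 without animals 13 and 15, and its female value was 0.12 without animals 14 and 16. Hsd17b4 had -0.03 ± 0.08 in females and -0.04 ± 0.07 in males, and Plin2 -0.42 ± 0.18 and -0.17 ± 0.13. Without animals 13 and 15 the male value of Plin2 was -0.32. None of these 3 passed in either sex. Of the cell type marker lists, 0 genes passed in the exposure comparisons. The 3 erythroid markers tested were all below 0, with a median log2 fold change of -0.60 in females and -0.24 in males. Their list summed to 18.5, 33.5 and 207 CPM in PCB 52 females, against 52.6, 114.6 and 203 CPM in sham females, and to 30.3, 105 and 182 CPM in PCB 52 males, against 85.6, 112 and 211 CPM in sham males. The 3 fat cell markers tested were also all below 0 in females (median -0.31), and 2 of 3 were in males (median -0.18). The part of these cell types in the values of the oxidation genes was not tested.

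Whether the sexes responded differently was tested as the female response less the male response. Of the 34 genes, 0 were called, as were 0% of all 10535 genes, of which 239 stood at an unadjusted p under 0.05. Cyp4a3 alone of the 34 stood under 0.05 unadjusted, where 2.27% of all genes did. Its difference of responses was 1.27 ± 0.42 (unadjusted p = 0.00530, adjusted p = 1). The medians were 9.24 CPM in PCB 52 females, against 6.78 CPM in sham females, and 1.33 CPM in PCB 52 males, against 2.52 CPM in sham males. The next smallest p values belonged to Pex11a at -0.29 ± 0.22, Acaa2 at -0.26 ± 0.23, Cyp4a1 at 0.31 ± 0.28 and Creb3l3 at -0.15 ± 0.16, all with an adjusted p of 1. Without animals 13 to 16 these were -0.43 for Acaa2, 0.12 for Cyp4a1 and -0.26 for Creb3l3, and without PCB 52 male 6 Cyp4a1 had 0.57. Of the other pathway genes, Lpin1, a phosphatidate phosphatase and coactivator, had -1.50 ± 0.65, Acot13, another thioesterase, -0.48 ± 0.24, and Phyh, the first enzyme of alpha oxidation, -0.44 ± 0.24. Ppara had -0.23 ± 0.27, Hsd17b4 0.01 ± 0.10 and Plin2 -0.26 ± 0.24. These 6 also had an adjusted p of 1. The Lpin1 value was -0.89 without PCB 52 male 5 and -0.97 with consecutively numbered animals as a block, and that of Plin2 was 0.0121 without animals 13 to 16. Lpin1 varied widely between animals, with 70.1, 95.2 and 214 CPM in PCB 52 females, against 99.8, 180 and 598 CPM in sham females. In males it had 118, 168 and 657 CPM in PCB 52 animals, against 157, 196 and 286 CPM in sham animals.

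The genes differed in how closely the libraries of 1 group kept to each other. This spread holds counting noise as well as differences between animals. Counting noise is larger for genes with few counts, such as Acot1 and Cyp4a3, which had as little as 0.535 CPM in a PCB 52 male. The pooled SD of log2 CPM within groups was 0.088 for Etfa, 0.097 for Hadh and 0.101 for Acadvl and Eci2, the steadiest of the 34. It was 1.18 for the barely detected Acot1, 0.622 for Fgf21, 0.557 for Cyp4a3, 0.514 for Vnn1 and 0.510 for Pdk4. In the core mitochondrial cycle it was highest for Acaa2, at 0.315, and next for Acads, at 0.198.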

How the data were processed

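Liver RNA of 24 rats was sequenced, with 1 library per animal and 6 animals in each group. Groups, sexes and animal numbers come from the labels. For animal 24 the sample title and the count column name end in different numbers, and the column was matched by its animal number and the description. The deposited values are raw gene counts, in 1 table per sex, per the labels. Per the submitters' processing notes, FastQC and HISAT2 were used with the rat build rn6. How reads were assigned to genes, and with which strand setting and annotation, is not given in the sources used here, so overlapping genes and near-identical copies (Cyp4a2 and Cyp4a3, the Acot genes, Acaa1a and Acaa1b) are uncertain. Of 15319 Entrez IDs, 15230 matched a RefSeq symbol (GRCr8), and 89 stayed unnamed but in the totals and tests. Replicate numbers follow accession order and pair no animals. No pair of replicates was close enough to be 1 library (lowest chi-square per degree of freedom 7.01).

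The main test was edgeR 4.0.16 (R 4.3.3): TMM factors, filterByExpr (minimum count 10, minimum total 15), robust quasi-likelihood test, Benjamini-Hochberg adjustment over all genes and a threshold of 0.05. Exposure was tested within each sex. The average response, its difference between the sexes and the contrasts of females with males came from 1 fit of all 24 libraries. SE is the log2 fold change divided by the root of F. The procedure was tested on simulated counts. Alternatives were RLE factors, other low-count filters, DESeq2 1.42.0, limma-voom (limma 3.58.1), no robust fit, other samples in the fit, a block for consecutive animals, a threshold of 0.1 and leaving out libraries. Full values are given for genes that passed or, where fewer than 5 did, the 5 with the smallest p, and for fixed pathway genes plus the 3 with the smallest p, of which some are not reported here. Cd36 and Cyp4a8 in the closing section were chosen after their values were seen. The members, lists and alternatives were chosen with earlier results of these data known. Of 52 other pathway genes listed, 51 were measured.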

Additional observations from a re-analysis of the deposited data

Results flagged for a closer look

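In each group of 6, the highest or lowest library was set against the others. A value was listed where its gap to the nearest library took up more of the group's range than Dixon's critical value allows. This held for 4 of 136 groups, where chance gives about 1 in 20. Cyp4a1, the fatty acid hydroxylase, had 137 CPM in PCB 52 male 6 (animal 23), above 56.3 to 71.3 CPM in the other PCB 52 males. Fabp1, the fatty acid binding protein, had 1127 CPM in PCB 52 female 2 (animal 16), below 1743 to 2180 CPM in the other PCB 52 females. Acaa2, the mitochondrial thiolase, had 256 CPM in sham female 4 (animal 8), below 412 to 499 CPM in the other sham females. Acaa1a, a peroxisomal thiolase, had 311 CPM in sham female 6 (animal 12), below 363 to 386 CPM in the other sham females.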

How the results depend on the processing

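The count of the 35 genes called for exposure was 0 in every alternative run, in both sexes, on average and for the difference of responses. Over all genes, the calls for exposure in females were 28 with DESeq2, 1 with all 24 libraries in 1 fit and 0 to 8 with each library left out in turn. In males DESeq2 called 1. On average DESeq2 called 105, a threshold of 0.1 called 22 and leaving out libraries gave 0 to 15. Between the sexes, leaving out libraries gave 13 to 14 higher and 4 to 5 lower genes among PCB 52 animals, and 13 to 17 higher and 2 to 4 lower among sham animals. Among sham animals, limma-voom called 21 higher and 5 lower, the fit without animals 13 to 16 called 17 and 5, and a threshold of 0.1 gave 19 and 5. Calls over all genes rose too, to 2596, 2317 and 2670 in the same order, from 2139 in the main test.

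Of the other pathway genes named, Hsd17b4, Ppara and Plin2 changed sign. With libraries left out, the exposure log2 fold change in females ran from -0.0536 to 0.0022 for Hsd17b4 and from -0.115 to 0.0755 for Ppara. For the difference of responses, Hsd17b4 ran from -0.0182 to 0.06, and Plin2 was 0.0121 without animals 13 to 16. Between the sexes, Hsd17b4 ran from -0.0146 to 0.0376 among PCB 52 animals and from -0.0505 to 0.0245 among sham animals, where limma-voom gave 0.0198. The causes were not tested. The labels pair no animals. A block for consecutively numbered animals, a pairing chosen here, could be fitted for the sex comparisons and the difference of responses. It called 17 higher and 5 lower genes in females among PCB 52 animals, where the main test called 13 and 4. Among sham animals it called 17 and 4, where the main test called 15 and 3. Every gene called in the main test was still called with the block. Some genes described above as not passing therefore passed with the block, and they are not identified here. Ppara, which is not in these counts, gained a call among sham animals. Over all genes the block called 2403 among PCB 52 animals, where the main test called 2093. Among sham animals it called 2467 of all genes, where the main test called 2139. At these depths 1 count is a large part of the level of Cyp4a2 and Acot1, and of that of Cyp4a8 in females.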

Other observations

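Among the other genes of the pathway, a fatty acid importer and a further Cyp4a gene had wide differences between the sexes. Cd36, which takes up long-chain fatty acids at the cell surface, had a lowest, median and highest value of 117, 299 and 394 CPM in PCB 52 females, against 9.87, 11.4 and 15.3 CPM in PCB 52 males. Sham rats had 116, 166 and 331.99 CPM in females, against 8.22, 9.47 and 13.1 CPM in males. Its log2 fold change was 4.44 among PCB 52 animals and 4.28 among sham animals, and it passed in both. Cyp4a8 went against Cyp4a1 and Cyp4a3. It had 0.112, 0.178 and 0.383 CPM in PCB 52 females, against 2.37, 6.63 and 8.15 CPM in PCB 52 males. In sham animals it had 0, 0.117 and 1.03 CPM in females, against 1.68, 5.47 and 7.15 CPM in males. Its log2 fold change was -4.73 and -3.93, and it passed in both. In PCB 52 females 1 count was 0.109 to 0.138 CPM. The female side of these values therefore rests on few counts, and their size is uncertain. These genes were picked for their values, which are given as a description.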
